A study of Rattus norvegicus with 12 samples.

Results

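The genes of MHC class II antigen presentation were followed in mammary glands of young rats whose dams had eaten a high fat butter (HFB) or a control AIN (CTL) diet. The 9 genes were chosen by name from the 16511 genes of the counts table: RT1-Ba, RT1-Bb, RT1-Da, RT1-Db1, RT1-DMa, RT1-DMb, Cd74, Ciita and Ctss. By the labels, RNA was sequenced from snap-frozen mammary glands at postnatal day 21, with 1 gland taken from each litter. The paper describes the rats as Sprague-Dawley. It cites these data for laser-captured epithelium in a comparison of butterfat diets with and without bisphenol A, which differs from the labels, and the labels were followed here. There were 6 HFB libraries and 6 CTL libraries, and the comparison asks whether the prenatal diet was followed by a different RNA profile in the gland of the offspring. The offspring themselves received the control diet after birth, and the sources used here differ on when the exposure ended. The labels name no other treatment in either group. Sprague-Dawley rats are outbred and class II genes are polymorphic, so reads of an allele far from the reference sequence could have been lost in the counting.

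MHC class II molecules are pairs of an alpha and a beta chain that carry peptides from endocytosed proteins to the cell surface, where CD4+ T cells read them. Newly made pairs are held by the invariant chain, which is trimmed in endosomes and exchanged for a peptide with the help of a further, non-classical pair. B cells, dendritic cells and macrophages are the main carriers of class II, and the mammary gland holds macrophages and dendritic cells around its ducts as well as lymph nodes embedded in its fat pad. In such bulk tissue, more cells of a type and more RNA per cell cannot be told apart.

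Total counts per library lay between 2320267 and 2944680. Levels are given as CPM, the counts of a gene relative to the library total after scaling with TMM factors, and 3 counts, taken as the limit of detection, corresponded to between 0.949 and 1.3 CPM. This limit covers counting error only. The lengths of the transcripts were not used here, so levels are compared between libraries and not between genes.

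HFB 6 and CTL 6 stood apart from the other 10 libraries. Among the 9382 genes tested, HFB 6 had the highest level of its diet in 3178 (33.9%) and the lowest in 3225, and CTL 6 had the highest in 3510 (37.4%) and the lowest in 3516. For HFB 1 the highest level was found in 1295 genes (13.8%). The summed level of the 9 class II genes was 5141 CPM in HFB 6, where the other HFB libraries had 455 to 1045 CPM, and 4671 CPM in CTL 6, where the other CTL libraries had 473 to 678 CPM. Lymphoid genes were also high in HFB 6 and CTL 6. The summed level of the B cell genes, of which 9 of 10 were measured, ranged from 9.31 to 440.2 CPM in HFB with a median of 33.8, and from 5.90 to 517 CPM in CTL with a median of 19.2. HFB 6 and CTL 6 held the highest values, and HFB 1 followed with 100.4 CPM. Cd79b, a chain of the B cell receptor and the gene of the list with the most counts over the 12 libraries, reached 263 CPM in HFB 6 and 231 CPM in CTL 6 against diet medians of 11 and 5.52. The 10 T cell genes summed to 1043 CPM in HFB 6 and 989.9 CPM in CTL 6, against medians of 83.0 and 27.4 CPM and lowest values of 7.52 and 11.1 CPM. Lck, a kinase of the T cell receptor pathway and the gene with the most counts over the 12 libraries, was at 199 and 219 CPM there. The gene named as leading each further list was chosen by the same total, and it need not lead in every library.

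The 7 pan-leukocyte genes, led by Arhgdib, summed to 3326 CPM in HFB 6 and 3241 CPM in CTL 6, with medians of 567 and 312 CPM and lowest values of 231 and 223 CPM. The lymph node stroma list gave 2730.5 and 2442 CPM in these libraries, with medians of 132 and 196 CPM and lowest values of 118 and 95.7 CPM. Its gene with the most counts was Ccl21, a chemokine that draws T cells and dendritic cells into lymph nodes, at 2026 CPM in HFB 6 and 1887 CPM in CTL 6. Fdcsp, a marker of follicular dendritic cells, had 0 counts in all 12 libraries, and Chst4, a sulfotransferase of lymph node venules, had 2 counts in CTL 6 and 0 elsewhere. The dendritic cell genes (10 of 12 measured, led by Clec10a) summed to 204 CPM in HFB 6 and 214 CPM in CTL 6, against medians of 105 and 90.6 CPM. Clec10a itself was lowest of its diet in both, at 45.7 and 36.3 CPM against medians of 69.2 and 61.7 CPM. The chemokine genes Ccl17 (58.5 and 43.7 CPM) and Ccl22 (58.1 and 46.8 CPM), named after their values had been seen, made up much of the sum there. Of the 10 genes HFB 6 was highest in 6 and lowest in 3, the latter including Irf8 and Zbtb46 with 2 counts each, and CTL 6 was highest in 8 and lowest in 1. The 12 macrophage genes, led by the complement gene C1qa, differed between these libraries: HFB 6 was second highest of its diet at 1276 CPM (median 929.5) after HFB 5 at 1382 CPM, whereas CTL 6 was lowest of its diet at 711 CPM (median 825) and CTL 5 was highest at 1053 CPM. C1qa was highest of its diet in HFB 6, at 388 CPM against a median of 179.5, and was at 169 CPM in CTL 6 against a median of 167. Of the 12 genes HFB 6 was highest in 2 and lowest in 4, and CTL 6 was highest in 1 and lowest in 7. The genes lowest in both, named after their values had been seen, included Cd163 (22.9 and 9.51 CPM against medians of 39.6 and 34.3 CPM) and Mrc1 (42.9 and 32 CPM against medians of 88.9 and 90.9 CPM). All 8 adipocyte genes, led by Fabp4, were lowest of their diet in HFB 6 and in CTL 6. The summed adipocyte level was 18989 CPM in HFB 6 and 15323 CPM in CTL 6, with medians of 34024 and 31957 CPM.

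**Figure D1:**
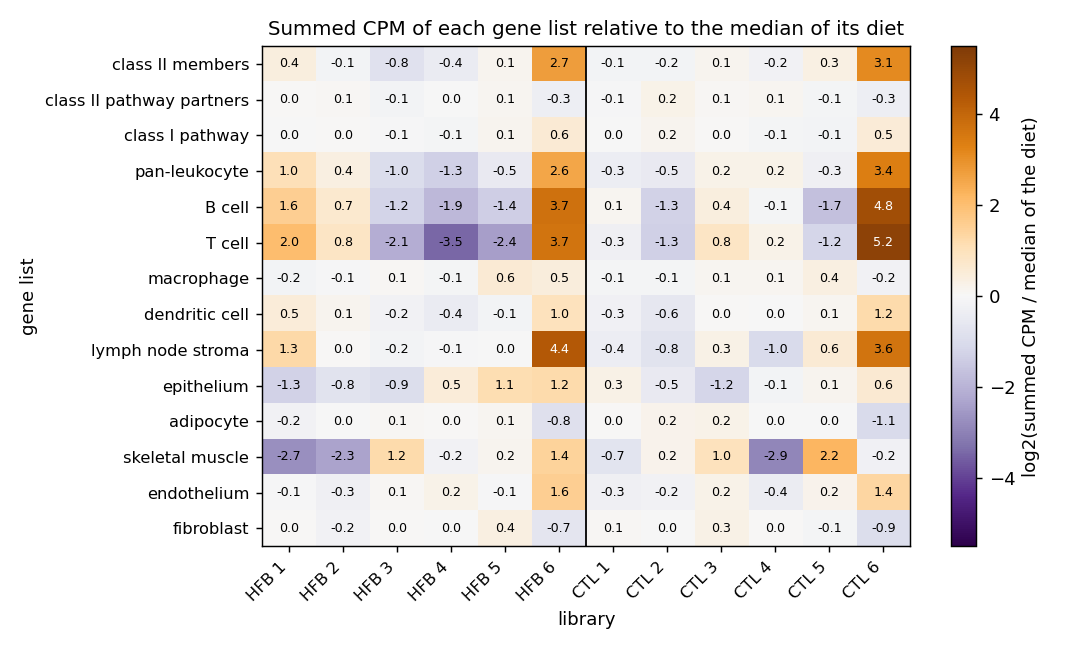
Summed CPM of each gene list in each of the 12 libraries, as the log2 ratio to the median of the library's own diet; each line is a gene list, each column a library, and orange marks values above the median. The B cell, T cell, pan-leukocyte and lymph node stroma lists and the class II genes were high in HFB 6 and CTL 6, where the adipocyte list was low.

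The summed level of the endothelial genes (6 of 7 measured, led by Egfl7) was also highest in these libraries, at 807 and 764 CPM against medians of 274 and 297 CPM, and 4 of the 6 genes were highest in each. Cdh5, named after its values had been seen, was lowest of its diet in HFB 6, at 2.81 CPM against a median of 19.4, and was at 27.5 CPM in CTL 6 against a median of 33. The 6 fibroblast genes, led by Col3a1, summed to 20501 CPM in HFB 6 and 19549.7 CPM in CTL 6, the lowest values of their diets, with medians of 32588 and 36753 CPM. The epithelial list (8 of 10 measured, led by Krt8, with Cldn3 at 0) ranged from 118 to 677 CPM in HFB with a median of 288. In CTL it ranged from 192 to 671 CPM with a median of 434, and its sum was highest in HFB 6 and CTL 6. Of the 7 genes other than Cldn3, HFB 6 was highest in 4 and CTL 6 in 5. Epcam, named after its values had been seen, was at 51.3 and 77.8 CPM there, against medians of 40 and 78.6 CPM. Skeletal muscle genes, all 8 measured and led by Acta1, varied over a wider range, from 429 to 7808 CPM in HFB and from 219 to 7688 CPM in CTL, and were highest in HFB 6 and CTL 5. Whether these cell types account for the class II levels was not tested.

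Transcription of class II genes is known to depend on promoter elements named the X, X2 and Y boxes, which are bound by the RFX complex, by CREB and by NF-Y, and on the coactivator CIITA. Because most of the class II genes were highest in the same libraries, the RefSeq promoter windows of the GRCr8 assembly were searched on both strands for AGNNACNGA (core of the X box), TGNGTCA (X2 box) and ATTGG (Y box); the X and X2 letters can share bases. Each window runs from 250 bases before to 50 bases after the start of a gene, and windows were read for 7 of the 9 genes, those other than RT1-DMb and Ciita. The Y letters were present in all 7 windows and in 37.5% of the 33469 windows of the table. The X letters were present in 4 of the 7 and in 18.1% of all windows, and the X2 letters were present in Ctss and in 14.5% of all windows. An X match followed on the strand of the gene by a Y match that starts 30 to 36 bases later was found in RT1-Bb, RT1-Da and RT1-Db1. This spacing was chosen after the windows had been read. It occurred in 19 of all windows (0.0568%), of which 5 belong to class II genes, the other 2 being RT1-Db2 and RT1-DOb. The stretches that hold these letters are shown 5′ to 3′ on the strand of the gene, with the X and Y letters in capitals. Each lies before the start of its gene, on chromosome 20 of GRCr8:
RT1-Da, chr20:4515311-4515380, plus strand: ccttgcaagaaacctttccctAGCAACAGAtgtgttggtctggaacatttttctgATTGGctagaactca
RT1-Db1, chr20:4560228-4560297, minus strand: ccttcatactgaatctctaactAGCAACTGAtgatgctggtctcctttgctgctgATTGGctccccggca
RT1-Bb, chr20:4604165-4604234, minus strand: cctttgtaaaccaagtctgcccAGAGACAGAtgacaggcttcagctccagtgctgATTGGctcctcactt
RT1-Ba, chr20:4576959-4577028, plus strand: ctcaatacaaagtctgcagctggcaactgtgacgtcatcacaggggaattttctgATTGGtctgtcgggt
RT1-DMa, chr20:4712385-4712454, minus strand: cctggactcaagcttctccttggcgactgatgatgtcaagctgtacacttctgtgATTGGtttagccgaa
In RT1-Da the X letters began at -83 and the Y letters at -49 from the start of the gene, in RT1-Db1 at -113 and -80, and in RT1-Bb at -94 and -61. RT1-Ba and RT1-DMa had the Y letters at -43 and -64 and no exact X letters before the start. Near matches were not searched. The RT1-Ba stretch holds tgacgtca before its Y letters, which the X2 letters as searched cannot match. The RT1-DMa stretch holds ggcgactga, which differs from the X letters only in its first base. A missing match therefore does not show that a box is absent. A match is a description of the letters and not of binding.

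The classical RT1-D pair, encoded by RT1-Da (alpha chain, Entrez 294269) and RT1-Db1 (beta chain, Entrez 294270), was measured in all 12 libraries. RT1-Da ranged from 69.0 CPM in HFB 3 to 359 CPM in HFB 6 with a median of 122, and from 66.1 CPM in CTL 1 to 520.5 CPM in CTL 6 with a median of 84.5. RT1-Db1 ranged from 51.5 CPM in HFB 3 to 851 CPM in HFB 6 with a median of 95.1, and from 50.8 CPM in CTL 4 to 707 CPM in CTL 6 with a median of 64.5. Both chains were thus highest in the same library of each diet, and the diets overlapped. In HFB 6 the beta chain was 8.95 times its diet median and the alpha chain 2.94 times, whereas in CTL 6 the factors were 11 and 6.16. RT1-Db1 has a close copy, RT1-Db2, whose reads could have been split with it.

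The second classical pair, RT1-B, is encoded by RT1-Ba (Entrez 309621) and RT1-Bb (Entrez 309622). RT1-Ba lay between 21.4 and 553 CPM in HFB with a median of 60.7, and between 30.8 and 468 CPM in CTL with a median of 44.2. RT1-Bb lay between 20.7 and 528 CPM in HFB with a median of 48.1, and between 27.7 and 364 CPM in CTL with a median of 44.9. HFB 6 and CTL 6 held the highest values and HFB 3 and CTL 2 the lowest, and HFB 1 came next to HFB 6 with 83.9 CPM of RT1-Ba and 92.9 CPM of RT1-Bb. The remaining 5 CTL libraries stayed between 27.7 and 55.4 CPM for both chains.

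**Figure D2:**
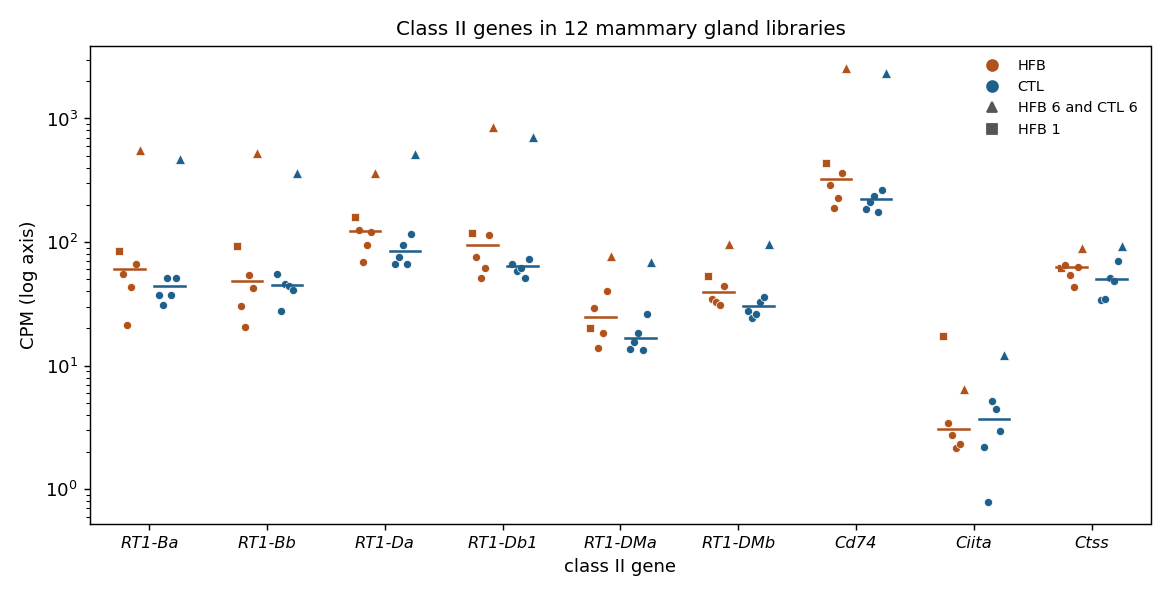
CPM of the 9 class II genes on a log axis, with 1 point per library, HFB in orange and CTL in blue; triangles mark HFB 6 and CTL 6, the square marks HFB 1, and lines mark the median of 6 libraries. The triangles lie above all other points of their diet except for Ciita in HFB, where HFB 1 is higher.

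Cd74 (Entrez 25599) encodes the invariant chain, which blocks the peptide groove and sorts class II into endosomes. It ranged from 189 CPM in HFB 3 to 2579 CPM in HFB 6 with a median of 324, and from 175 CPM in CTL 4 to 2340.1 CPM in CTL 6 with a median of 224. The next library after HFB 6 was HFB 1 at 439 CPM, and the next after CTL 6 was CTL 5 at 262 CPM. Ctss (Entrez 50654), cathepsin S, makes a late cut in the invariant chain, and it varied least in relation to its median. It ranged from 43.3 to 90.2 CPM in HFB with a median of 62.8, and from 34.2 to 93.3 CPM in CTL with a median of 50. HFB 6 and CTL 6 were again highest, at 1.44 and 1.87 times the medians, against 7.97 and 10.5 times for Cd74.

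RT1-DMa (Entrez 294274) and RT1-DMb (Entrez 294273) encode the non-classical pair that releases the invariant chain remnant and edits peptides. RT1-DMa ranged from 14 to 77.8 CPM in HFB with a median of 24.6, and from 13.4 to 69.4 CPM in CTL with a median of 16.8. RT1-DMb ranged from 30.8 to 96.2 CPM in HFB with a median of 39.2, and from 24.1 to 96.1 CPM in CTL with a median of 30.4. In HFB 6 and CTL 6 these genes were between 2.45 and 4.12 times their diet medians. HFB 5, not HFB 1, was next to HFB 6 for RT1-DMa, at 40.2 CPM.

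Ciita (Entrez 85483), the class II transactivator, was scarce. It had between 6 and 42 counts in HFB and between 2 and 35 counts in CTL, and CTL 2 with 2 counts was under the limit of detection. Its level was 17.3 CPM in HFB 1 and 6.41 CPM in HFB 6, where the other class II genes were highest, while the other 4 HFB libraries had 2.15 to 3.43 CPM. In CTL it was highest in CTL 6 at 12.3 CPM, and CTL 3 followed at 5.22 CPM. Ciita did not pass the filter on low counts, so 8 of the 9 genes entered the test between diets.

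No class II gene differed between the diets beyond the spread of the libraries. With edgeR's quasi-likelihood test and Benjamini-Hochberg adjustment, 0 of the 8 class II genes and 0 of all 9382 tested genes (0%) had an adjusted p under 0.05. DESeq2 and limma-voom also gave 0 genes. At an unadjusted p under 0.05 there were 220 genes (2.34%), 122 higher and 98 lower in HFB, against 271 with DESeq2 and 613 with limma-voom, and none was a class II gene with any of these tools. DESeq2 returned no p for RT1-Ba, RT1-Bb, RT1-Db1 and Cd74. An unadjusted p under 0.05 together with a change of over 2-fold, a rule the study used on another comparison, was met by 11 genes (0.117%), none of them a class II gene.

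The mean of Cd74 was 680.5 ± 934 CPM in HFB and 568 ± 869 CPM in CTL (SD, n = 6 each), and its log2 fold change was 0.26 with an SE of 0.83 (edgeR adjusted p = 0.999). Cd74 was above the CTL median in 5 of the 6 HFB libraries. RT1-Da, with means of 154 ± 105 and 156 ± 179 CPM (SD, n = 6 each), had a log2 fold change of -0.022. The other 6 genes had log2 fold changes between 0.19 for Ctss and 0.41 for RT1-Bb. The median over the 8 genes was 0.27, against 0.00018 over all tested genes. The diets overlapped in all 9 genes.

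The size and sign of the log2 fold changes moved with HFB 6 and CTL 6, while the count at an adjusted p under 0.05 was 0 in edgeR with and without them. Without CTL 6 alone, the log2 fold changes of the 8 genes lay between 0.42 and 1.8, and 6 of them had an unadjusted p under 0.05, where 6.2% of all genes did, with no adjusted p under 0.684. Without HFB 6 alone they lay between -1.07 and 0.056, with 0 genes under that threshold, where 2.85% of all genes were. With both left out, a choice made after the data had been seen, all 8 genes were higher in HFB, by log2 fold changes between 0.17 and 0.50 with a median of 0.42. Of these 8, Cd74 (0.50, SE 0.21, unadjusted p = 0.0347 in edgeR) and RT1-DMb (0.41, SE 0.175, unadjusted p = 0.0352 in edgeR) were under an unadjusted 0.05, as were 431 of all genes (4.59%). Their adjusted p was 0.919. Cd74 was then above the CTL median in 4 of 5 HFB libraries and RT1-DMb in 5 of 5. In this fit of 10 libraries the median log2 fold change was 0.82 for pan-leukocyte, 1.1 for B cell and 1.77 for T cell genes. The T cell value rests on 1 tested gene and the B cell value on 2. The other marker lists had medians between -0.28 and 0.093. Whether these shifts account for the class II values was not tested. With the pan-leukocyte level as a covariate over all 12 libraries, 3 of the 8 genes were higher in HFB and the median log2 fold change was -0.15. With the B cell level as a covariate, 8 of the 8 genes were higher in HFB and the median was 0.23.

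**Figure D3:**
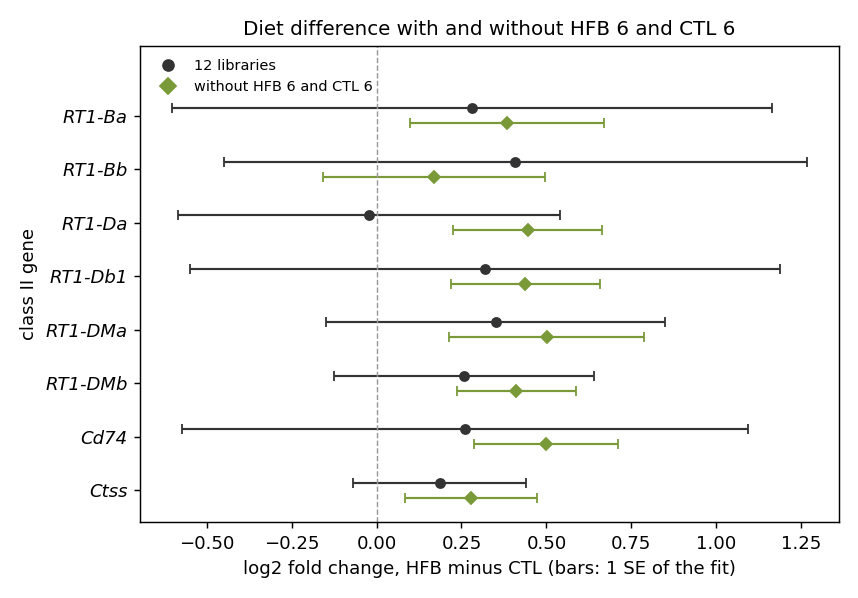
Log2 fold change of HFB against CTL for the 8 tested class II genes, with bars of 1 SE; circles use 12 libraries and diamonds use 10, without HFB 6 and CTL 6. The errors shrink without these libraries, for Cd74 from 0.83 to 0.21, and none of the genes passes an adjusted p of 0.05 in either fit.

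Ratios of class II genes within a library need no scaling between libraries, and 8 of them were compared between diets as log2 ratios of counts, with 2 counts added to each, which weighs on the ratio of a scarce gene such as Ciita. In a two-sided exact permutation test over all 924 assignments of the libraries, which can reach p = 0.0022, the p-values lay between 0.522 and 0.987. All adjusted p-values over the 8 ratios were 0.95 or 0.987. The balance between chains did differ among libraries. The log2 ratio of RT1-Da to RT1-Db1 was -1.24 in HFB 6 and between 0.052 and 0.73 in the other HFB libraries. It was -0.44 in CTL 6 and between -0.014 and 0.67 in the other CTL libraries. The alpha chain of the D pair was thus low against its partner in the same libraries in which both were abundant. The chains of the B pair showed no such shift, since their log2 ratio was 0.066 in HFB 6 and 0.36 in CTL 6, inside or close to the range of the other libraries.

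The invariant chain also ran ahead of RT1-Da there. The log2 ratio of Cd74 to RT1-Da was 2.84 in HFB 6 and 2.17 in CTL 6, and lay between 1.16 and 1.59 in the other libraries. The ratio of RT1-Ba to RT1-Da was 0.62 in HFB 6 and -0.15 in CTL 6, the highest values of their diets. Against Cd74, the protease gene Ctss was low there, with log2 ratios of -4.83 and -4.64 in HFB 6 and CTL 6 and between -2.81 and -1.79 in the other libraries. Ciita relative to Cd74 was lowest in HFB 6 (-8.48) and CTL 6 (-7.49) and highest in HFB 1 (-4.60). RT1-DMa relative to RT1-Da gave another order, with HFB 1 (-2.93) and CTL 6 (-2.89) lowest and HFB 6 at -2.20.

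**Figure D4:**
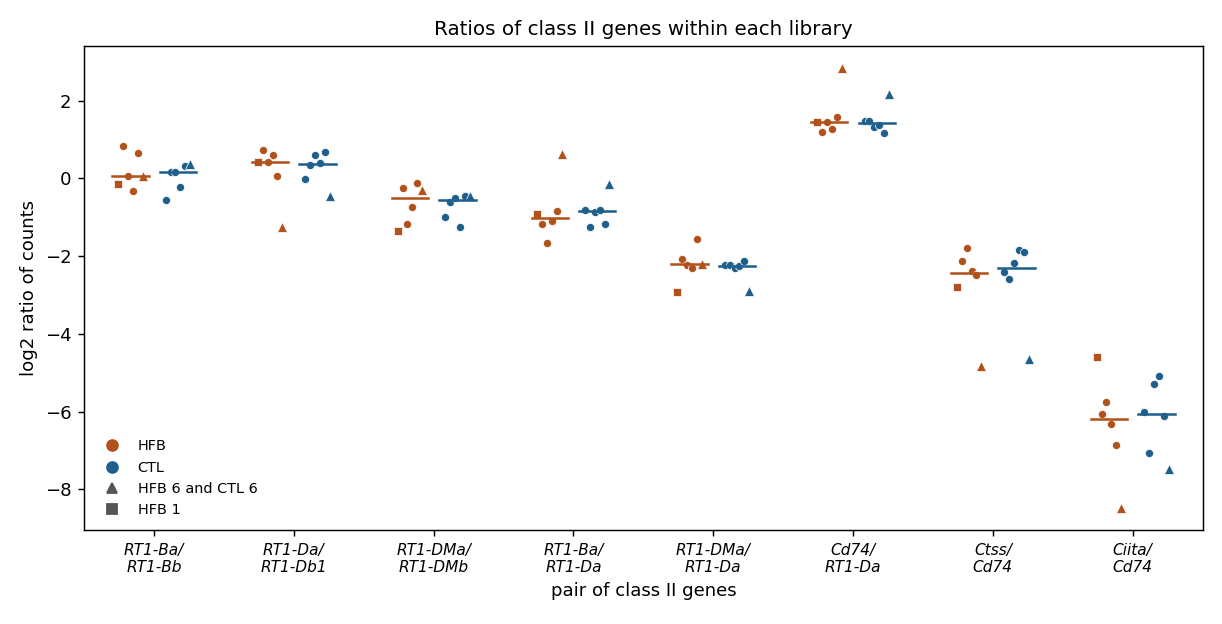
Log2 ratios of counts between pairs of class II genes in each library, with HFB in orange, CTL in blue and lines at the median of 6 libraries; triangles mark HFB 6 and CTL 6 and the square marks HFB 1. Triangles lie apart for Cd74 to RT1-Da and for Ctss to Cd74, and the diets overlap for every ratio.

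In Cd74, HFB 6 and CTL 6 each lay far above the other libraries of their diet. The relation of Cd74 to the other genes was therefore read over the other 10 libraries. These are also the libraries left when those farthest from the median of Cd74 are removed. Pearson's r and Spearman's rank coefficient (rho) of log2 CPM were used, with permutation tests of 100000 resamples and adjustment over 20 relations. Cd74 followed the D chains closely. For RT1-Da, r was 0.951 (p = 1e-05, the smallest that the resamples can give; adjusted p = 0.0002) and rho was 0.976 (p = 3e-05; adjusted p = 0.0006). For RT1-Db1, r was 0.940 (p = 0.00022; adjusted p = 0.0022) and rho was 0.879 (p = 0.00155; adjusted p = 0.0088). RT1-Ba gave r = 0.870 (p = 0.00092; adjusted p = 0.00613) and rho = 0.879 (p = 0.00176; adjusted p = 0.0088).

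The beta chain of the B pair was looser, with r = 0.485 (p = 0.156; adjusted p = 0.222) and rho = 0.139 (p = 0.707; adjusted p = 0.786) for RT1-Bb. Whether this differed from RT1-Ba was not tested. RT1-DMa passed with both measures, at r = 0.743 (p = 0.0143; adjusted p = 0.0477) and rho = 0.915 (p = 0.00037; adjusted p = 0.0037). RT1-DMb passed with r = 0.8 (p = 0.006, or 0.024 once adjusted) but not with rho = 0.648 (p = 0.0492, or 0.14 once adjusted). Ctss did not pass, with r = 0.638 (p = 0.0476, or 0.119 once adjusted) and rho = 0.709 (p = 0.0274, or 0.0913 once adjusted). Ciita did not pass either, with r = 0.553 (p = 0.102, or 0.186 once adjusted) and rho = 0.345 (p = 0.33, or 0.6 once adjusted).

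Of the 12 gene lists compared with Cd74 over these 10 libraries, the lymph node stroma list passed with r = 0.807 (p = 0.00474; adjusted p = 0.0237) but not with rho = 0.745 (p = 0.0175; adjusted p = 0.0702). The pan-leukocyte list gave r = 0.702 (p = 0.0257; adjusted p = 0.0733) and rho = 0.564 (p = 0.0968; adjusted p = 0.242). B cell, T cell, dendritic cell and class I genes had r between 0.491 and 0.591 with adjusted p between 0.145 and 0.222. Macrophage genes had r = 0.235 (p = 0.518; adjusted p = 0.575) and rho = 0.139 (p = 0.706; adjusted p = 0.786). The epithelial, adipocyte, skeletal muscle, endothelial and fibroblast lists had r between -0.425 and -0.0677, with adjusted p of 0.297 or more. These relations pool both diets, and with 5 libraries left in each they were not tested within a diet.

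**Figure D5:**
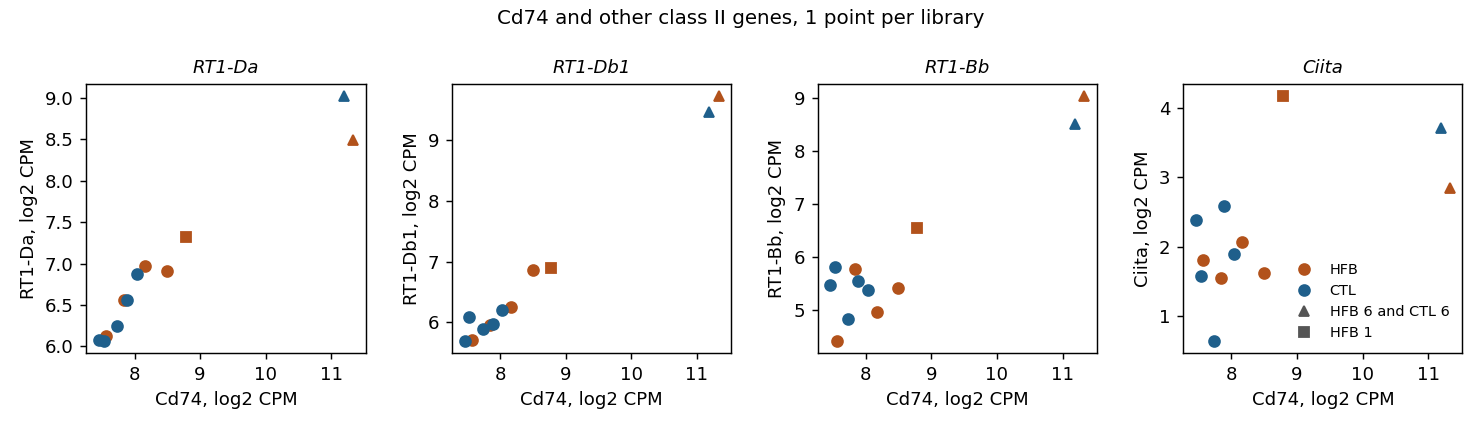
Log2 CPM of RT1-Da, RT1-Db1, RT1-Bb and Ciita against log2 CPM of Cd74, with 1 point per library, HFB in orange and CTL in blue. Triangles (HFB 6 and CTL 6) lie apart, and among the other 10 libraries r is 0.951, 0.940, 0.485 and 0.553 in the order of the panels; the square is HFB 1.

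The wider class II pathway did not move as a block. All 32 partner genes were in the table and 24 were tested. None had an unadjusted p under 0.05 in edgeR, against 2.34% of all genes, 12 of the 24 were higher in HFB, and the median log2 fold change was -0.019. Without HFB 6 and CTL 6, 2 of 25 tested partners were higher in HFB at an unadjusted p under 0.05, against 4.59% of all genes. Of 29 partners with a mean of at least 3 counts per library of the diet, HFB 6 was the highest library of its diet in 11 and the lowest in 13, and CTL 6 was highest in 14 and lowest in 10. The shares in which they were highest, 37.9% and 48.3%, compare with 33.9% and 37.4% over all tested genes. The 3 partners with the most counts are lysosomal proteases, and they were lowest in HFB 6 and CTL 6. Ctsb was at 906 CPM in HFB 6 and 698 CPM in CTL 6, against medians of 1499 and 1388 CPM. Ctsd was at 652 and 462 CPM against medians of 788 and 660.2 CPM. Ctsh was at 411 and 387 CPM against medians of 546 and 595 CPM. The partner genes that were high in these libraries included some that were picked after their values had been seen. RT1-DOa, a chain of the DO pair that restrains DM in B cells, was at 33.3 CPM in HFB 6 and 50.4 CPM in CTL 6, against medians of 2.29 and 1.21 CPM. Its partner chain RT1-DOb was at 2.81 CPM in HFB 6, under HFB 1 at 11.5 CPM, and at 17.3 CPM in CTL 6. Rfx5, a subunit of the factor that binds the X box, was at 2.20 and 2.06 times the medians. Of the other subunits, Rfxank was at 2.14 and 1.53 times its medians and Rfxap at 1.06 and 1.33 times. Among genes of the other box factors, Creb1 was lowest of its diet in both, at 2 and 1.76 CPM against medians of 5.77 and 3.48 CPM. Nfya was at 0.401 and 1.41 CPM against medians of 4.39 and 3.78 CPM, with 1 and 4 counts. Nfyb was at 0.717 and 1.01 times its medians, while Nfyc was at 1.85 and 1.64 times its medians. Ifi30, a thiol reductase of endosomes, was at 2.99 and 2.58 times its medians. RT1-Db2, the copy of RT1-Db1, reached 42.5 CPM in HFB 6 and 71.8 CPM in CTL 6. Cd4, also named after its values had been seen, was lowest of its diet in HFB 6, at 4.81 CPM against a median of 18.7. In CTL 6 it was at 23.9 CPM against a median of 21.6. Ifng, the cytokine that induces Ciita, had 0 counts in all 12 libraries, and the costimulatory gene Cd80 stayed under 3 counts in each.

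The class I pathway loads peptides from the cytosol, and 15 of its 16 listed genes were measured and tested. HFB 6 was the highest library of its diet in 11 of 15 and CTL 6 in 11 of 15 (73.3% each, against 33.9% and 37.4% over all tested genes), with median factors of 2.26 and 2.63 over the diet medians. The class I gene with the most counts, B2m, the light chain, was within 1.33 times its diet median in these libraries, with 1907 CPM in HFB 6 and 2206 CPM in CTL 6 against medians of 1755 and 1662 CPM. The chaperones Calr (1284 and 1022 CPM against medians of 1043 and 998 CPM) and Pdia3 (473 and 561 CPM against 524 and 621 CPM) were close to their medians as well. Between diets, the median log2 fold change of the 15 genes was 0.022, and Erap1 alone, 1 of 15, had an unadjusted p under 0.05, against 2.34% of all genes. Erap1, the aminopeptidase that trims class I peptides, was between 67.9 and 87.4 CPM in HFB with a median of 77.1, and between 82.9 and 108 CPM in CTL with a median of 96.5. Its means were 77.6 ± 6.81 and 96.8 ± 10.4 CPM (SD, n = 6 each), and the diets overlapped. Its log2 fold change was -0.32 with an SE of 0.11 (edgeR unadjusted p = 0.0117, adjusted p = 0.999), so it did not pass over all genes.

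Diet differences of the marker lists were of either sign. The median log2 fold change in edgeR was 0.50 for the 7 pan-leukocyte genes, 0.44 for the 3 tested T cell genes, 0.042 for the 2 tested B cell genes, 0.12 for the 3 tested dendritic cell genes and 0.079 for the 11 tested macrophage genes. It was -0.16 for the 2 tested lymph node stroma genes, -0.21 for the 7 tested epithelial genes, -0.019 for the 8 adipocyte genes, 0.42 for the 8 skeletal muscle genes, -0.14 for the 6 tested endothelial genes and -0.13 for the 6 fibroblast genes. Without HFB 6 and CTL 6 the medians were 0.82 for pan-leukocyte, 1.77 for T cell (1 tested gene), 1.1 for B cell, 0.093 for dendritic cell, 0.013 for macrophage, -0.13 for lymph node stroma, -0.28 for epithelial, -0.042 for adipocyte, -0.065 for skeletal muscle, -0.11 for endothelial and -0.18 for fibroblast genes. The T cell sums of HFB 1 and HFB 2 were 339 and 147 CPM, whereas HFB 3, HFB 4 and HFB 5 had 19.1, 7.52 and 15.5 CPM and the CTL libraries other than CTL 6 had 11.1 to 49.1 CPM. In the fit without HFB 6 and CTL 6, 5 of the 7 pan-leukocyte genes, 1 of 2 tested B cell genes, the 1 tested T cell gene and 1 of 11 macrophage genes were higher in HFB at an unadjusted p under 0.05 in edgeR, and 2 of 6 fibroblast genes were lower, against 4.59% of all genes. Whether these cell types account for the class II values was not tested. In the fit of 12 libraries, C1qb (unadjusted p = 0.0119) and C1qc (unadjusted p = 0.0429) of the macrophage list, named after their values had been seen, were higher in HFB in edgeR at an adjusted p of 0.999. They were 2 of 11 tested macrophage genes, and no gene of the other marker lists had an unadjusted p under 0.05, against 2.34% of all genes.

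The genes most like the class II genes were sought by the correlation of log2 CPM, centred within each diet, with the mean of the 8 tested class II genes. Over 12 libraries, 519 of 9374 other genes (5.54%) had r over 0.9, and over the 10 libraries without HFB 6 and CTL 6 this was so for 9 genes. The 9 with the highest r over 12 libraries were Arhgap9, Srebf2, Twf2, Lpcat1, Bcl2a1, Laptm5, Slc44a2, Ldb1 and Arhgap4, with r between 0.984 and 0.988. Of these, Arhgap9 and Laptm5 are known from blood cells, Laptm5 as a lysosomal membrane protein, and Bcl2a1 restrains cell death. Srebf2 is a regulator of cholesterol synthesis. Over the other 10 libraries, r of these genes was between 0.821 for Srebf2 and 0.892 for Twf2, and it was 0.890 for Arhgap9. None of the 9 genes was among the first 10 in that setting, where the tenth gene had an r of 0.898. Twf2 and Arhgap9 lay just under this value. These 9 genes, chosen for a high r over 12 libraries, thus kept an r of 0.821 or more. Over all genes the likeness did depend on HFB 6 and CTL 6, since genes with r over 0.9 fell from 519 to 9.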

How the data were processed

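RNA of 12 mammary glands was analysed, 6 per diet, grouped by the diet field of the labels and numbered in accession order. The authors deposited raw counts of reads per gene, without normalization. The submitters' processing notes name bcl2fastq, CASAVA 1.8, TopHat, DESeq and the rn4 assembly, without roles, and counting rules and use of strand are not given in the sources used here. Of the 16511 Entrez identifiers, 16351 were given a symbol from RefSeq (GRCr8); Mylpf is listed there as Myl11. The members and lists were chosen with earlier results of these data known.

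The diets were compared by the quasi-likelihood test of edgeR 4.0.16 (R 4.3.3) after filterByExpr and TMM scaling, and p-values were adjusted over all tested genes by the Benjamini-Hochberg method, at a threshold of 0.05. CPM used the totals over tested genes, which held at least 98.8% of the counts, and log2 CPM a prior count of 2. P-values measure the spread between libraries, each of 1 gland from its own litter. As a check for libraries counted more than once, the 30 pairs within a diet were compared, and none was a duplicate (chi-square per degree of freedom of 7.09 or more). Alternatives used DESeq2 1.42.0 and limma 3.58.1 (voom with quality weights), other normalizations and filters, covariates, a prior of 0.5 and leaving out each library. Leaving out HFB 6 and CTL 6 together was added after the data had been seen. Ratios and correlations were computed in Python 3.11.15 with scipy 1.17.1. The fits were tested on simulated data.

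Named were all class II genes, the 3 with the most counts, undetected and unadjusted-significant genes of the partner and class I lists, the gene with the most counts and genes at 0 of each marker list, and the 10 genes most alike, of which 1 is not reported here. Nlrc5, Cd79a, Itgax, Siglech, Krt5, Krt7 and Kdr were not analysed here.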

Additional observations from a re-analysis of the deposited data

Results flagged for a closer look

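In 62 sets of 6 values, 1 per diet for each class II gene, ratio, list sum and total, the highest or lowest library was compared with its nearest neighbour, and 37 values lay far from the rest. Chance would do this in about 1 of 20 sets, or 3.1 of these, and the sets are not independent since HFB 6 and CTL 6 recur.

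CTL 6 lay far above the other CTL libraries in CPM of RT1-Ba (468), RT1-Bb (364), RT1-Da (520.5), RT1-Db1 (707), RT1-DMa (69.4), RT1-DMb (96.1) and Cd74 (2340.1). HFB 6 did so in CPM of RT1-Ba (553), RT1-Bb (528), RT1-Da (359), RT1-Db1 (851), RT1-DMb (96.2) and Cd74 (2579). For Ciita the library apart was HFB 1 at 17.3 CPM, with HFB 6 next at 6.41 CPM.

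Among log2 ratios, HFB 6 was apart for RT1-Da to RT1-Db1 (-1.24), RT1-Ba to RT1-Da (0.62), Cd74 to RT1-Da (2.84) and Ctss to Cd74 (-4.83). CTL 6 was apart for RT1-DMa to RT1-Da (-2.89), Cd74 to RT1-Da (2.17) and Ctss to Cd74 (-4.64).

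In summed CPM, HFB 6 was far above its diet for the class I (7148), pan-leukocyte (3326), B cell (440.2), T cell (1043), lymph node stroma (2730.5) and endothelium (807) lists. CTL 6 was far above its diet for the class I (6968), pan-leukocyte (3241), B cell (517), T cell (989.9), dendritic cell (214), lymph node stroma (2442) and endothelium (764) lists, and far below it for the adipocyte list (15323). Total counts were apart in HFB 1 (2320267, the lowest) and in CTL 1 (2944680, the highest). What sets these libraries apart was not tested.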

How the results depend on the processing

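The count of 0 class II genes at an adjusted p under 0.05 was the same under all 21 alternatives to the edgeR fit, as was 0 of all genes, and 0 of 8 ratios passed under 14 alternatives. No paired analysis was possible because each gland came from a litter of its own and the labels link no HFB library to a CTL library. Genes at an unadjusted p under 0.05 numbered 220, against 613 with limma-voom, 485 and 364 with the pan-leukocyte and B cell covariates, 431 without HFB 6 and CTL 6, and 135 to 587 when 1 library was left out. With a fold change over 2 there were 11, against 64 with limma-voom, 113 with no filter, 4 with at least 10 counts in every library, 30 without HFB 6 and CTL 6, and 8 to 128 when 1 library was left out.

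Among log2 fold changes of class II genes and Erap1, 170 kept their direction and 19 turned it; the cause was not tested. For 4 of the 170, those of RT1-Ba, RT1-Bb, RT1-Db1 and Cd74 in DESeq2, there was no p. With the pan-leukocyte covariate they were -0.253 for RT1-Ba, -0.293 for RT1-Bb, -0.161 for RT1-Db1 and -0.137 for Cd74. With limma-voom they were -0.133 for RT1-Bb and 0.378 for RT1-Da, and RT1-Da was 0.0735 with the B cell covariate and 0.444 without HFB 6 and CTL 6. Leaving out 1 library gave -1.07 to 1.76 for RT1-Ba, -1.01 to 1.61 for RT1-Bb, -0.47 to 0.908 for RT1-Da, -1.02 to 1.8 for RT1-Db1, -0.0986 to 0.964 for RT1-DMa, -0.0586 to 0.744 for RT1-DMb and -0.92 to 1.7 for Cd74, each lowest without HFB 6 and highest without CTL 6. Ctss, at 0.0561 to 0.419, and Erap1, at -0.355 to -0.281, did not turn.

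Of the differences in log2 ratios, 95 kept and 17 turned their direction. Without HFB 6 and CTL 6 the difference was 0.05082 for RT1-Da to RT1-Db1 and -0.149 for RT1-Ba to RT1-Da. Leaving out 1 library gave -0.231 to 0.1907 for RT1-Da to RT1-Db1, -0.05157 to 0.1985 for RT1-DMa to RT1-DMb, -0.2882 to 0.1664 for RT1-Ba to RT1-Da, -0.009391 to 0.2655 for RT1-DMa to RT1-Da, -0.1055 to 0.2698 for Cd74 to RT1-Da, -0.5588 to 0.2693 for Ctss to Cd74 and -0.5237 to 0.2521 for Ciita to Cd74. By r, relations of Cd74 with an adjusted p under 0.05 numbered 18 of 20 over 12 libraries and 6 over the 10 without HFB 6 and CTL 6, and by rho 9 and 4. Over the 10, r turned for the macrophage (0.235), epithelium (-0.326), skeletal muscle (-0.0677) and endothelium (-0.135) lists. Skeletal muscle gave -0.029 to 0.362 when 1 library was left out. Of the 10 genes most like the class II genes, 0 were among the first 10 without HFB 6 and CTL 6.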
